A study of Mus musculus with 6 samples.

Results

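DNA replication and S-phase genes were examined as a set of 35 named genes, of 55450 genes in each deposited table. The members were given by name, and all 35 were found through their GENCODE vM21 gene names. They were grouped here by role into 8 groups: the MCM helicase, licensing and helicase activation, polymerases and primase, the sliding clamp and its loader, lagging strand and single-strand binding, nucleotide supply, G1/S regulators, and maintenance of DNA methylation. Levels came from RNA of mouse Th17 cells, the IL-17-producing class of CD4+ helper T cells. Naive CD4+ T cells of 2 wildtype mice, 8 to 12 weeks old, were activated with anti-CD3 and anti-CD28 antibodies under TGF-β and IL-6 and transduced with an MSCV retrovirus at 24 h. After a further 48 h in TGF-β and IL-6, RNA was taken at 72 h from 3 cultures of each mouse. The retrovirus was empty in the control group, carried ADAR2_WT in the second group, and carried ADAR2_E396A, an enzymatically dead form, in the third. ADAR2 is an enzyme that edits adenosine to inosine in double-stranded RNA. All groups therefore had wildtype cells, the same activation and a retrovirus, and no untransduced cells are compared here. Each group had 2 libraries, 1 per mouse, and the mice are called donor A and donor B. The labels do not state what share of cells carried the virus.

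Before a cell copies its DNA, origins are loaded with the MCM helicase by Cdc6 and Cdt1, a step called licensing. Cdc45 and the GINS complex then turn the loaded helicase into an active one, primase and polymerase alpha lay down primers, and polymerases delta and epsilon extend them on the Pcna clamp. Most of these genes are transcribed around the G1/S boundary by E2F factors, which cyclin E-Cdk2 activity keeps released from retinoblastoma proteins. Activated T cells divide within days of stimulation, and dividing cells express these genes. No resting cells are compared here.

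Between 16496328 and 21897166 reads were assigned to genes per library. Adarb1, which encodes ADAR2, was at 3687 and 3346 normalized counts in donors A and B under empty vector, 18499 and 19077 under ADAR2 WT, and 15709 and 14982 under ADAR2 E396A, which matches the labels. The 4 CD4 T cell markers summed to 25947 to 31068 normalized counts over the libraries, against 28.4 to 55.6 for 4 B cell markers, 11.5 to 40.1 for 5 myeloid markers and 0 to 2.32 for 3 erythroid markers. In bulk RNA, a smaller share of cells in S phase and less RNA per cell cannot be told apart.

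Promoter sequence was available for 30 of the 35 genes, in 36 windows of 250 bases before and 50 bases after a RefSeq transcription start (build GRCm38.p6). Stretches of 80 bases that hold no GENCODE exon are shown, 5′ to 3′ on the gene's strand, because the E2F factor is the one that many of these genes share. Capitals mark an 8-base E2F word, one of TTTCCCGC, TTTCGCGC, TTTGCCGC and TTTGGCGC on either strand, and overlapping words run together. The first 5 stretches hold such a word. The stretches of Prim1, Dut and Rrm2 come from promoters where none of these words was found, and are shown because the values of these genes lie at the edges of the comparisons below.
Mcm5, chr8:75109356-75109435, plus strand: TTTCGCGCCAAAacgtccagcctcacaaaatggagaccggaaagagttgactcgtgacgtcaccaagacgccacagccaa
Mcm6, chr1:128359736-128359815, minus strand: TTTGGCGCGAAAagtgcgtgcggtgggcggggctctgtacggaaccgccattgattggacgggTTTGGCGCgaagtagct
Cdc6, chr11:98908013-98908092, plus strand: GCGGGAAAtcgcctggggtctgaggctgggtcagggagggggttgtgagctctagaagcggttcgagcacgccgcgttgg
Pola1, chrX:93632214-93632293, minus strand: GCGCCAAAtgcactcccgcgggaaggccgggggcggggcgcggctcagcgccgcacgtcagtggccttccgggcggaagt
Uhrf1, chr17:56304128-56304207, plus strand: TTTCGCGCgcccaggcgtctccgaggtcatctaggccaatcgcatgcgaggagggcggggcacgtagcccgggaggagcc
Prim1, chr10:128015088-128015167, plus strand: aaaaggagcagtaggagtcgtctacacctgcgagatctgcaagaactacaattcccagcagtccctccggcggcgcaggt
Dut, chr2:125247402-125247481, plus strand: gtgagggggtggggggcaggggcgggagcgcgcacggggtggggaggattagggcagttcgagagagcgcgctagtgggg
Rrm2, chr12:24708161-24708240, plus strand: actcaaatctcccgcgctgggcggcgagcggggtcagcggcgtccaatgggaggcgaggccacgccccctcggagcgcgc

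At least 1 E2F word was found in 13 of the 30 members with a promoter (43.3%), in 28.6% of 56 other replication and G1/S genes, and in 3.29% of 17492 protein-coding genes. The 13 genes were Mcm3, Mcm5, Mcm6, Mcm7, Cdc6, Cdt1, Gins3, Pola1, Pold1, Rfc3, Lig1, E2f2 and Uhrf1. The letters CCAAT, a common promoter box, were found on either strand in 56.7% of the 30 members and 42.3% of protein-coding genes. Both an E2F word and CCAAT were present in 30% of members and 1.62% of protein-coding genes. These matches describe letters in a window and were not tested as binding sites.

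In the empty-vector cells the genes were highly expressed. Per kilobase of exon, the median of the 35 genes was 269 normalized counts, against 110 for 12119 tested protein-coding genes, and 33 of the 35 lay above that general median. Pcna, the clamp that tethers polymerases to DNA, had the highest level, a mean of 1926 normalized counts per kilobase (1787 in donor A and 2064 in donor B). Levels per kilobase then ran through Mcm6 (1498), Mcm3 (1419), Rrm2 (1387), Uhrf1 (1356) and Mcm4 (1247). Neighbours in this order differed by less than the spread between the donors for Mcm3, Rrm2 and Uhrf1, since Rrm2 alone ranged from 1181 to 1593. The 6 MCM subunits, which act as 1 ring, spanned 439 (Mcm2) to 1498 (Mcm6) counts per kilobase, a 3.41-fold range. That range depends on the length used, all annotated exon bases of a gene: 6956 for Mcm2 and 3589 to 4666 for the others. Before division by length Mcm5 was lowest, at a mean of 2686 counts against 3052 for Mcm2. At the other end were Gins3 (89.0) and Fen1 (50.6), the only members below the general median. Of the exon bases of Fen1, the flap endonuclease, 84.2% overlap exons of other genes, and of Gins2 67.3%, so their reads are uncertain. The overlap was 17.4% for Ccne2, 12.7% for Rfc4 and 12.6% or less for 6 further members, and Pcna and Tyms have named pseudogenes that can share reads.

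**Figure D1:**
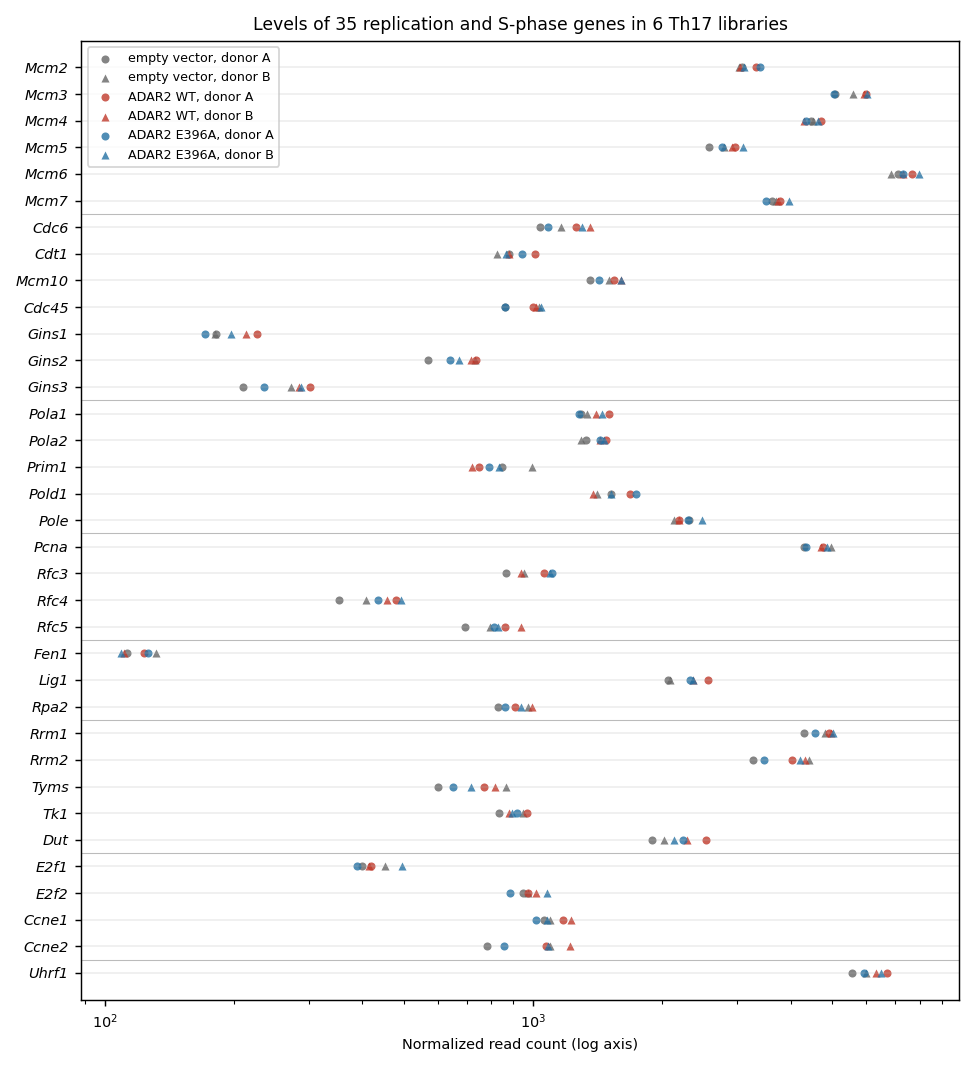
Normalized read counts (log axis) of the 35 genes, ordered by role with grey lines between roles. Circles are donor A and triangles donor B, in grey for empty vector, red for ADAR2 WT and blue for ADAR2 E396A; the 6 points of most genes lie close together, from Fen1 at 109 to 132 counts to Mcm6 at 6869 to 7988.

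With ADAR2 WT, no member passed the test over all 6 libraries, although most fitted values lay slightly above 0. None of the 35 members passed an adjusted p of 0.05 in limma (nor in edgeR or DESeq2), where 0.816% of the 14958 tested genes did (122 genes). That test lets the variance depend on level, an option set after the data were seen, and without it no gene passed. At an unadjusted p under 0.05 there were 8 members (Cdc6, Prim1, Rfc4, Rfc5, Lig1, Dut, Ccne2 and Uhrf1), against 14.1% of all tested genes. The fitted log2 change was above 0 for 31 of 35 members, against 49.6% of all tested genes, with a median of 0.13 over members and -0.00 over all genes. Members tended to move together over the 6 libraries, so these and later counts of members are not counts of independent genes. A member's correlation with the median of the other members was above 0 for 30 of 35 (median 0.73). It was not computed for all genes. Values ran from -0.32 (Prim1) to 0.30 (Ccne2). In this fit the 95% intervals of members ran from -0.54 (Prim1) to 0.62 (Gins3, a 1.53-fold increase). These and later intervals are per gene, not adjusted for the number of genes, and depend on the fit. For Gins3 the SE was 0.14 here and 0.25 in the authors' deposited values, so larger changes are not excluded. Changes are differences of log2(normalized count + 1), tested with group and donor as terms.

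The outcome of that test depended on which libraries entered it. With only the 4 ADAR2 WT and empty-vector libraries, Dut, Prim1, Ccne2 and Lig1 passed, with limma adjusted p of 0.0041, 0.015, 0.016 and 0.032, where 8.61% of 14430 genes passed. That fit leaves 1 residual degree of freedom per gene. Leaving out 1 library of the 6 gave 4 members without donor B's ADAR2 E396A library (7.72% of genes called), 3 without donor A's (5.99%), 2 without donor B's empty-vector library (5.80%) and 0 without any other.

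**Figure D2:**
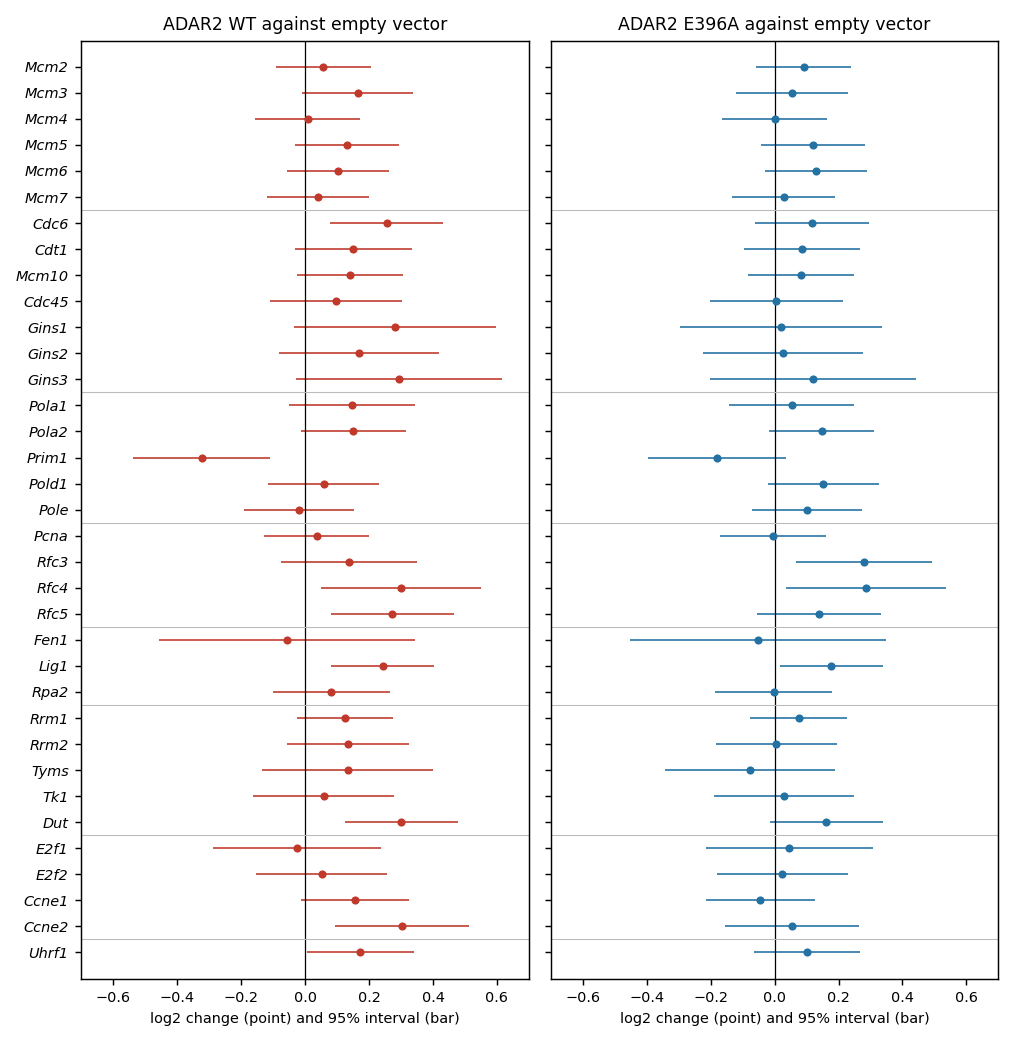
Fitted log2 change of each gene (points) with its 95% interval (bars) for ADAR2 WT (left, red) and ADAR2 E396A (right, blue) against empty vector, ordered by role. Most points lie right of 0, none beyond 0.30 with ADAR2 WT, and Prim1 is lowest on both sides.

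With ADAR2 E396A, no member passed the test either. The median over members was smaller than with ADAR2 WT in the fit of both donors. In donor B alone it was not, at 0.08 against 0.06. None of the 35 members passed, against 0.0134% of tested genes (2 genes). At an unadjusted p under 0.05 there were 3 members (Rfc3, Rfc4 and Lig1), against 3.89% of genes. The fitted log2 change was above 0 for 29 of 35 members, against 46.9% of all tested genes, with a median of 0.06 over members and -0.01 over all genes. Values ran from -0.18 (Prim1) to 0.29 (Rfc4). The lowest 95% bound was -0.45 (Fen1) and the highest 0.54 (Rfc4, 1.45-fold). This comparison uses the same empty-vector libraries as that of ADAR2 WT, so the values of the constructs are not independent and are given side by side only.

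**Figure D3:**
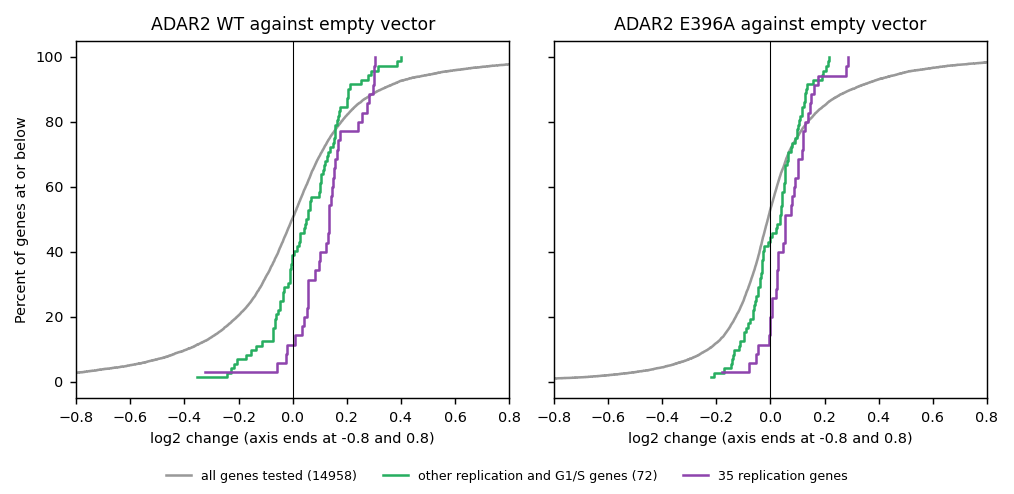
Percent of genes at or below each fitted log2 change for the 35 replication genes (purple), 72 other replication and G1/S genes (green) and all 14958 tested genes (grey). The purple curve lies right of the grey one over most of its range, with medians of 0.13 for ADAR2 WT (left) and 0.06 for ADAR2 E396A (right), and spans a narrower range than all genes.

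None of the MCM helicase subunits passed with either construct. All 6 fitted changes were above 0 with both constructs, with medians of 0.08 and 0.07, and none had an unadjusted p under 0.05. Mcm6 was at 7107 and 6869 normalized counts in donors A and B under empty vector, 7681 and 7315 under ADAR2 WT, and 7306 and 7988 under ADAR2 E396A, fitted changes of 0.10 and 0.13 (SE 0.07 each). Both libraries of each construct lay above both empty-vector libraries. Mcm3 was at 5068 and 5581 under empty vector, 6001 and 5915 under ADAR2 WT, and 5048 and 6036 under ADAR2 E396A. Both ADAR2 WT libraries of Mcm3 were above empty vector (0.16, SE 0.08), while the ADAR2 E396A libraries lay on both sides. Mcm4 was nearest to no change, at 0.01 and 0.00.

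Licensing and helicase-activation genes had fitted changes above 0 in 7 of 7 with each construct, with medians of 0.17 for ADAR2 WT and 0.08 for ADAR2 E396A. Cdc6, the licensing ATPase, was at 1037 and 1162 under empty vector, 1263 and 1358 under ADAR2 WT, and 1086 and 1305 under ADAR2 E396A. The ADAR2 WT libraries lay above both controls (0.25, SE 0.08, limma adjusted p = 0.206). Gins1, a subunit of the GINS complex with few reads, was at 182 and 181 under empty vector, 227 and 214 under ADAR2 WT, and 171 and 198 under ADAR2 E396A (0.28 and 0.02, SE 0.14). Cdt1, the licensing partner of Cdc6, was at 879 and 823 under empty vector, 1012 and 882 under ADAR2 WT, and 945 and 863 under ADAR2 E396A (0.15 and 0.09, SE 0.08). Its values with ADAR2 WT were above both controls, by a small margin in donor B. Gins3 had a value of 0.29 (SE 0.14) with ADAR2 WT that came mostly from donor A, where the difference was 0.52, against 0.07 in donor B.

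Prim1, the catalytic subunit of primase, had the lowest fitted value of any member with both constructs, without passing the test. It was at 847 and 997 normalized counts under empty vector, 748 and 721 under ADAR2 WT, and 790 and 832 under ADAR2 E396A. All 4 libraries with a construct were below both empty-vector libraries, and no other member showed this order for either construct, where 18.5% of tested genes lay below both controls with ADAR2 WT and 11.9% with ADAR2 E396A. The fitted change was -0.32 (SE 0.09, limma adjusted p = 0.183) under ADAR2 WT and -0.18 (SE 0.09, limma adjusted p = 0.999) with ADAR2 E396A. Pola1 and Pola2, the polymerase alpha subunits that bind primase, had fitted changes of 0.15 each under ADAR2 WT, and of 0.05 and 0.15 under ADAR2 E396A. Pole, the catalytic subunit of polymerase epsilon, was at -0.02 and 0.10. Pold1, the catalytic subunit of polymerase delta, was at 1524 and 1409 under empty vector, 1690 and 1377 under ADAR2 WT, and 1740 and 1523 under ADAR2 E396A, so that donor A was above donor B within every group.

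None of the clamp and clamp-loader genes passed. Rfc4 had the highest value of any member with ADAR2 E396A, and Pcna, the clamp, was near 0 with both constructs. Rfc4 was at 352 and 408 under empty vector, 479 and 455 under ADAR2 WT, and 434 and 493 under ADAR2 E396A. All 4 libraries with a construct were above both controls, at 0.30 and 0.29 (SE 0.11, limma adjusted p = 0.279 and 0.999). Rfc5 was at 694 and 795 under empty vector, 859 and 938 under ADAR2 WT, and 810 and 827 under ADAR2 E396A, again with both constructs above both controls (0.27 and 0.14, SE 0.08). Rfc3 was at 865 and 952 under empty vector, 1060 and 938 under ADAR2 WT, and 1108 and 1094 under ADAR2 E396A (0.14 and 0.28, SE 0.09). For Rfc3 only the ADAR2 E396A libraries lay above both controls. Pcna was at 4290 and 4953 under empty vector, 4744 and 4705 under ADAR2 WT, and 4341 and 4866 under ADAR2 E396A, at 0.04 and -0.00 (SE 0.07), with all groups overlapping.

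Among lagging-strand genes, Lig1, the ligase that seals Okazaki fragments, was at 2063 and 2094 under empty vector, 2559 and 2365 under ADAR2 WT, and 2331 and 2368 under ADAR2 E396A. All 4 libraries with a construct lay above both controls, and the controls differed little from each other. The fitted changes were 0.24 (SE 0.07, limma adjusted p = 0.183) and 0.18 (SE 0.07, limma adjusted p = 0.999). Rpa2, a subunit of the single-strand binding protein RPA, was at 0.08 and -0.00 (SE 0.08). Fen1 was at 113 and 132 under empty vector, 124 and 111 under ADAR2 WT, and 127 and 109 under ADAR2 E396A, too few and too overlapping to separate the groups (-0.06 and -0.05, SE 0.18).

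In nucleotide supply, Dut had the smallest adjusted p of any member in the comparisons of a construct with empty vector. Dut, the dUTPase that keeps uracil out of DNA, was at 1896 and 2022 under empty vector, 2536 and 2295 under ADAR2 WT, and 2242 and 2140 under ADAR2 E396A. The groups did not overlap: ADAR2 WT was highest, ADAR2 E396A in between and empty vector lowest. The share of tested genes with this order was not counted. The fitted change was 0.30 (SE 0.08, 1.23-fold, limma adjusted p = 0.143) with ADAR2 WT and 0.16 (SE 0.08, limma adjusted p = 0.999) with ADAR2 E396A. Tyms, thymidylate synthase, was at 601 and 865 under empty vector, 768 and 814 under ADAR2 WT, and 652 and 717 under ADAR2 E396A (0.13 and -0.08, SE 0.12). In Tyms the control libraries were the lowest and the highest of the 6. Rrm1 and Tk1 were at 0.12 and 0.06 with ADAR2 WT.

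None of the 4 G1/S regulators passed with either construct. Ccne2, cyclin E2, was at 782 and 1096 under empty vector, 1072 and 1220 under ADAR2 WT, and 855 and 1084 under ADAR2 E396A. Within each donor the ADAR2 WT library was highest, but across donors the groups overlapped (0.30, SE 0.09, limma adjusted p = 0.201; with ADAR2 E396A 0.06). Ccne1, cyclin E1, was at 1064 and 1095 under empty vector, 1176 and 1229 under ADAR2 WT, and 1016 and 1078 under ADAR2 E396A, so that ADAR2 WT lay above all other libraries (0.16, SE 0.07) and ADAR2 E396A was at -0.04. E2f1 and E2f2, the activating factors, had fitted changes of -0.03 and 0.05 under ADAR2 WT and of 0.05 and 0.02 under ADAR2 E396A. Uhrf1, which recruits the maintenance methyltransferase to newly copied DNA, was at 5552 and 5999 under empty vector, 6712 and 6307 under ADAR2 WT, and 5914 and 6484 under ADAR2 E396A. Its ADAR2 WT libraries lay above both controls (0.17, SE 0.07, limma adjusted p = 0.334).

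The constructs were compared directly as the test of any difference between them. None of the 35 members passed, where 0.0669% of tested genes did (10 genes), and 2 had an unadjusted p under 0.05, Ccne2 and Ccne1, against 12.4% of genes. Ccne2 was 0.25 higher (SE 0.09, limma adjusted p = 0.325) and Ccne1 0.20 higher (SE 0.07, limma adjusted p = 0.331) with ADAR2 WT than with ADAR2 E396A. Gins1 was at 0.26 (SE 0.14), Tyms at 0.21 (SE 0.12), and Prim1 and Rfc3 were lowest at -0.14 each. The value was above 0 for 27 of 35 members, against 50.9% of all genes, with a median of 0.06. That median was -0.02 without the ADAR2 WT library of donor A, with 13 of 35 above 0. The 95% intervals of the members ran from -0.40 (Fen1) to 0.58 (Gins1, 1.49-fold).

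Both ADAR2 WT libraries lay above both empty-vector libraries for 19 of 35 members, against 18.7% of tested genes, and both ADAR2 E396A libraries did for 8 of 35, against 11.5%. The share of tested genes with both constructs above, or both below, the controls at once was not counted. The constructs share those controls. ADAR2 WT lay above both ADAR2 E396A libraries for 6 members (19.4% of genes) and below both for 3, Prim1, Pole and Rfc3 (17.3%).

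ADAR2 WT was above the empty-vector library of the same donor in both donors for 22 members (31.2% of tested genes) and below in both for 1, Prim1 (31.5%). For ADAR2 E396A the counts were 16 (21.4%) and 2, Prim1 and Ccne1 (23.9%). The size of these differences was not the same in the 2 donors. In donor A, ADAR2 WT was above empty vector for 33 of 35 members, with a median log2 difference of 0.20. In donor B it was above for 23, with a median of 0.06. For ADAR2 E396A the medians were 0.09 in donor A (24 of 35 above 0) and 0.08 in donor B (25 of 35). ADAR2 WT exceeded ADAR2 E396A for 29 members in donor A (median 0.12) and for 13 in donor B (median -0.03). With 1 library per group and donor these values have no replicate check, and their difference between the donors was not tested. Over all tested genes each of these medians lay between -0.02 and 0.02.

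**Figure D4:**
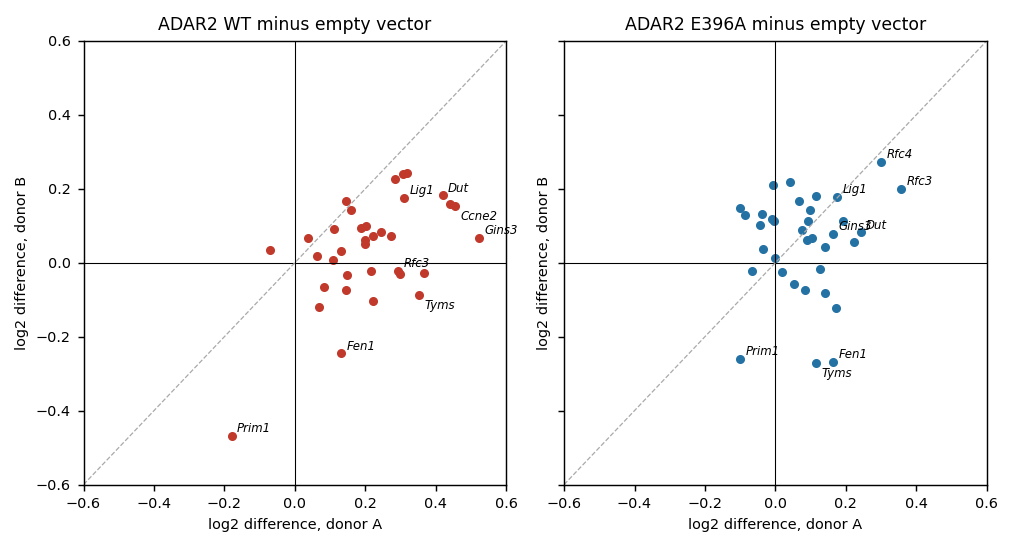
Log2 difference from the empty-vector library of the same donor for each of the 35 genes, donor A on the horizontal and donor B on the vertical axis, for ADAR2 WT (left) and ADAR2 E396A (right), with a dashed line of equality. With ADAR2 WT most points lie below the line, where donor A shows the larger value (Gins3 0.52 and 0.07); Prim1 is below 0 in both donors for both constructs.

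Library by library, donor A's empty-vector library was the lowest of the 6 for 18 of 35 members and the highest for none. It was also the lowest for 33 and the highest for 9 of 72 other replication and G1/S genes, described below. The share over all tested genes was not counted. For the members its median deviation from each gene's mean was -0.14 on the log2 scale. The empty-vector library of donor B was near the mean at -0.01. The ADAR2 WT libraries were at 0.07 and 0.05 and the ADAR2 E396A libraries at -0.06 and 0.08 in donors A and B. As a share of all assigned reads, the 35 genes took 0.336% and 0.376% under empty vector, 0.390% and 0.389% under ADAR2 WT, and 0.364% and 0.399% under ADAR2 E396A. Without donor A's empty-vector library the median change of members was 0.11 for ADAR2 WT and 0.05 for ADAR2 E396A. Without donor A's ADAR2 WT library the ADAR2 WT median was 0.05, against 0.13 with all libraries. The ADAR2 E396A median was 0.11 without donor A's ADAR2 E396A library and 0.12 without donor B's empty-vector library, against 0.06. The median range of the members over the 6 libraries was 0.28 on the log2 scale. It was close to the 0.32 of 9410 tested genes with a mean of at least that of the lowest member. Those genes were not otherwise matched to the members for level.

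**Figure D5:**
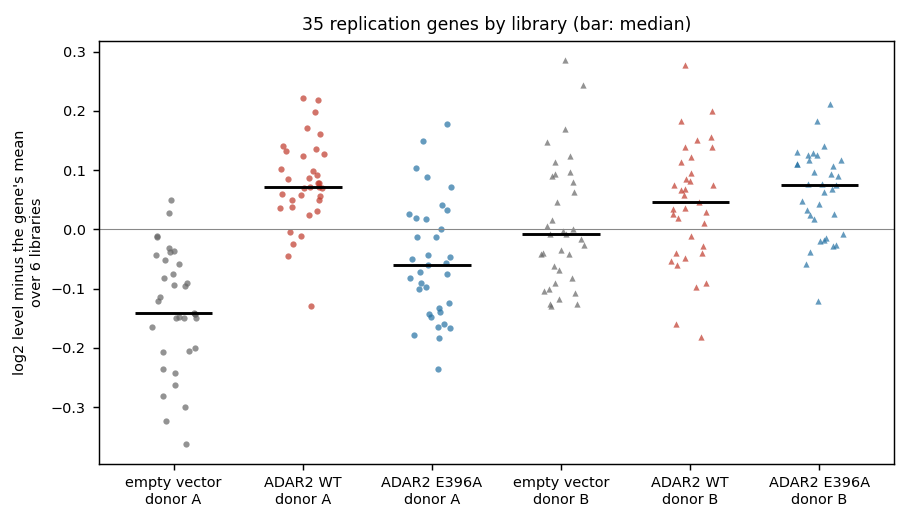
Deviation of each of the 35 genes from its own mean over 6 libraries, on the log2 scale, by library; black bars are medians. Donor A under empty vector has the lowest median, -0.14, and donor B under ADAR2 E396A the highest, 0.08.

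Between the donors, the members passed no more often than tested genes at large. Rrm2 and Ccne2, both higher in donor B, were 2 of 35 members, against 7.51% of tested genes (1124 genes). At an unadjusted p under 0.05 in limma there were 7 of 35 members, against 22.0%. Rrm2, the cell-cycle-regulated subunit of ribonucleotide reductase, was at 3272, 4025 and 3468 normalized counts in donor A under empty vector, ADAR2 WT and ADAR2 E396A and at 4413, 4322 and 4196 in donor B. Every donor B library was above every donor A library, with a fitted difference of 0.27 (SE 0.07, limma adjusted p = 0.0497). Ccne2, whose values are given above, was 0.34 higher (SE 0.07, limma adjusted p = 0.0313), and its lowest donor B library was just above its highest donor A library, 1084 against 1072.

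All donor B libraries lay above all donor A libraries for 4 members (Cdc45, Rpa2, Rrm2 and Ccne2; 11.0% of tested genes) and below for 1, Pold1 (-0.20, SE 0.06, limma adjusted p = 0.0989; 11.8% of tested genes). The next lowest, Cdt1, was at -0.14 (SE 0.07). The value was above 0 for 25 of 35 members (49.7% of genes). Neither call held when any 1 of the empty-vector or ADAR2 WT libraries was left out, with adjusted p of 0.067 to 0.14 for Ccne2 and 0.096 to 0.15 for Rrm2. Rrm2 also missed the threshold in edgeR, with an adjusted p of 0.0515, and no gene passed in limma without a trend of variance on level, a setting tried after the data were seen. The summed level of 5 Th17 markers moved with donor as well. In donors A and B it was 13763 and 28399 normalized counts under empty vector, 20041 and 42870 under ADAR2 WT, and 11329 and 55889 under ADAR2 E396A. The 5 CD8 T and NK cell markers summed to 176 to 2174, with Ncr1 at 0 in all libraries. In donor A the sum was mostly Gzma, at 503 to 2016. In donor B Gzma was at 27.1 to 103, below Cd8b1 at 112 to 142. The part of either marker list in the donor difference was not tested.

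A list of 72 other replication and G1/S genes in 6 groups, all past the filter, had lower medians than the members when pooled. This did not hold for every group, and the difference was not tested. None of the 72 passed against empty vector with either construct or between the constructs. Fitted changes were above 0 for 44 with ADAR2 WT and 41 with ADAR2 E396A, with medians of 0.05 and 0.04. By group, ADAR2 WT medians were 0.16 for 10 fork-protection, primer-removal and cohesion genes and 0.15 for 7 chromatin-assembly and methylation genes, against 0.13 for members. They were 0.10 for 15 origin genes and 0.02 for 11 polymerase, clamp-loader and RPA subunits. For 7 other nucleotide-supply genes and 22 other G1/S regulators they were -0.01 each. With ADAR2 E396A they ran from -0.04 (G1/S regulators) to 0.10 (fork protection). The highest with ADAR2 WT was Pole3, a histone-fold subunit of polymerase epsilon, at 489 and 582 under empty vector, 688 and 722 under ADAR2 WT, and 553 and 605 under ADAR2 E396A. Both ADAR2 WT libraries of Pole3 were above all others (0.40, SE 0.09, limma adjusted p = 0.108). Clspn, the checkpoint adaptor claspin, was at 1731 and 1896 under empty vector, 2175 and 2249 under ADAR2 WT, and 1956 and 2267 under ADAR2 E396A, above both controls in all 4 libraries (0.29 and 0.22, SE 0.07). Donson, a factor needed for helicase assembly at origins, was below both controls with each construct. It was at 1435 and 1512 under empty vector, 1231 and 1286 under ADAR2 WT, and 1198 and 1332 under ADAR2 E396A (-0.23 and -0.22, SE 0.07). Ccnd1, cyclin D1, had the lowest value with ADAR2 WT, -0.35 (SE 0.23), from 66.0 to 111 normalized counts per library. Rnaseh2a, a subunit of the ribonuclease that removes ribonucleotides from DNA, was 0.25 lower with ADAR2 WT than with ADAR2 E396A (SE 0.09, limma adjusted p = 0.325).

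Between donors, 6 of the 72 genes changed, where 7.51% of tested genes did, so their share was near that of all genes. E2f7 and E2f8, the atypical E2F repressors, were higher in donor B by 0.55 (SE 0.11, limma adjusted p = 0.0190) and 0.36 (SE 0.08, limma adjusted p = 0.0330), and Ccnd2, cyclin D2, by 0.22 (SE 0.06, limma adjusted p = 0.0490). E2f7 was at 246, 353 and 236 normalized counts in donor A, in the same order of groups, and at 367, 437 and 404 in donor B, without overlap. Lower in donor B were Samhd1, a dNTP hydrolase (-0.47, SE 0.08, limma adjusted p = 0.0111), Pold4, a small subunit of polymerase delta (-0.35, SE 0.08, limma adjusted p = 0.0421), and Rbl2, the pocket protein p130 (-0.30, SE 0.05, limma adjusted p = 0.0129). Samhd1 was at 18489, 15315 and 18308 in donor A and at 11390, 12860 and 13223 in donor B.

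Members with and without an E2F word in the promoter were set side by side. The 5 members without promoter sequence (Mcm4, Gins1, Gins2, Pole and Ccne2) were in neither group. A gene with several promoters counted as having a word if any of them held it. The same split was not made for all tested genes. All 13 with a word had fitted changes above 0 with both constructs, with medians of 0.15 for ADAR2 WT and 0.12 for ADAR2 E396A. Of the 17 without one, 14 and 11 were above 0, with medians of 0.12 and 0.03. The ranges overlapped: with ADAR2 WT, members with a word ran from 0.04 (Mcm7) to 0.29 (Gins3) and those without from -0.32 (Prim1) to 0.30 (Dut). The difference was not tested.

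In the authors' deposited table, no member passed an adjusted p of 0.05 for either construct. The lowest adjusted p in the authors' deposited table was 0.269 for ADAR2 WT (Dut) and 1.00 for ADAR2 E396A, and 4 members had an unadjusted p under 0.05 with ADAR2 WT (Dut, Lig1, Ccne2 and Prim1). The median log2 change of members in the authors' deposited table, turned so that a gene higher with a construct is positive, was 0.14 and 0.06.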

How the data were processed

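Libraries from ribosome-depleted RNA of 6 cultures were read, per the labels' protocols, on an Illumina NovaSeq. Reads were processed with STAR 2.6.1a, featureCounts and DESeq2 1.18.1 on mm10, per the submitters' processing notes. Whether counting used strand is not given in the sources used here. Each of 2 deposited tables, 1 per construct, holds normalized counts per library (a signal never below 0), per the file headers. Beside them stand the authors' DESeq2 mean, log2 fold change, Wald statistic as a score, and p-values before and after adjustment. The authors' log2 values take empty vector over construct, and their sign was turned here.

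Whole reads were recovered from the deposited normalized counts (100% whole within 0.001 of a read). Library columns carry no group or donor label. A library that both tables hold was taken as empty vector, and any other as the construct of its table. Donors were paired by refitting DESeq2 and taking the pairing that returned the deposited Wald statistics (largest difference 0.0008 over 28601 genes and 0.0011 over 28872, against 13.8 and 6.08 with donors crossed). Same-donor libraries come from 1 mouse, per the series' design text.

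The main test was limma 3.58.1 (R 4.3.3), chosen since the tables hold normalized values. Reads were scaled by median-of-ratios factors over 6 libraries, filtered with filterByExpr (14958 genes) and tested as log2(normalized count + 1), two-sided. The model had group and donor, an empirical Bayes variance trend, and Benjamini-Hochberg adjustment over all tested genes at 0.05. The trend was set after the data were seen, because the test without it recovered no changed gene in simulated data. With it most were recovered, and false calls ran above the nominal share. Recovery of changes as small as those fitted for the members was not tested. The pseudocount of 1 understates changes of low genes. All 35 members passed the filter. edgeR 4.0.16 and DESeq2 1.42.0 on recovered reads, other scalings, filters and pseudocounts, no donor term, only the 4 libraries compared, and each library left out were tried as alternatives. With 2 libraries a group, p-values measure the spread between these cultures.

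Symbols, positions and exon lengths came from GENCODE vM21, which held all 55450 gene IDs; promoters came from RefSeq. The members, the list of 72 other genes and the E2F words were chosen with earlier results of these data known. Named genes were, by rule, the members and listed genes with the lowest and highest values in a comparison, those that passed, and for each role the highest level and the largest ADAR2 WT statistic; other genes named, among them Gins3, Pole, Pola1, Pola2, Rpa2, E2f1 and E2f2, were chosen after their values were seen.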

Additional observations from a re-analysis of the deposited data

How the results depend on the processing

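The median change between the constructs turned from 0.06 to -0.02 without donor A's ADAR2 WT library. The median change of members with ADAR2 WT stayed above 0 in every alternative, from 0.05 to 0.19 with a library left out, and no member passed with ADAR2 E396A or between the constructs in any alternative run. Members called with ADAR2 WT numbered 4 with only the 4 libraries compared and 0 to 4 with a library left out; between donors, 1 with a mean of at least 50, a pseudocount of 0.5 or edgeR, and 0 to 3 with a library left out. Without the replicate block (the donor term), 2, 1 and 0 genes passed for ADAR2 WT, ADAR2 E396A and between the constructs, in place of 122, 2 and 10, and no member did. Without the variance trend in limma, added after seeing the data, 0 genes and 0 members passed in all 4 comparisons, with 1556, 757, 1359 and 2612 genes at an unadjusted p under 0.05. Genes called for ADAR2 WT numbered 58 with a mean of at least 50, 220 with no filter, 202 with DESeq2, 1243 with only the 4 libraries and 1 to 1217 with a library left out. For ADAR2 E396A there were 5 with no filter, 7 with DESeq2, 1 with only the 4 libraries and 1 to 127 with a library left out. Between the constructs there were 39 with TMM, 3 with a mean of at least 50, 102 with no filter, 106 with DESeq2, 237 with only the 4 libraries and 0 to 846 with a library left out. Between donors, in place of 1124, there were 111 to 1701 with a library left out. The median with ADAR2 E396A was 0.0672 with TMM, 0.0838 by total reads, 0.0687 with factors from nuclear protein-coding genes and 0.0462 to 0.1233 with a library left out, against 0.06. Between the constructs, the median ran from -0.02 to 0.13 and 13 to 30 members were above 0 with a library left out. Where a library is left out, a lone library is assumed to vary like the other groups; the cause of these shifts was not tested. Depth limits Fen1, Gins1 and Gins3 most, at 302 normalized counts or fewer.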
